A study of Mus musculus with 4 samples.

Results

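The genes of the mitochondrial respiratory chain and ATP synthase were followed in cultured mouse spermatogonial stem cells, the germ cells that renew themselves and feed sperm production, after their FGF signal was removed. Members were the array's gene names that begin with Nduf followed by a, b, c, s or v, Sdha to Sdhd, Uqcr, Cox4 to Cox8, Cycs or Atp5, with 1 probe for each gene, the brightest by the mean of both channels. This gave 87 of the 27827 gene names on the array, of which 80 encode subunits of complexes I to V and 7 do not: the carrier cytochrome c (Cycs) and 6 genes that share a name stem. A total of 85 of the 87 had a probe that stood well above background, in 1 channel on 3 or more of the 4 arrays, out of 18495 such genes. Cox4i2 was well above background on 2 arrays in each channel and Cox8b on none, so neither was tested.

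All cells came from C57/BL6 x DBA/2 F1 mice at day 5, and both groups received 40 ng/ml of the growth factor GDNF in medium free of serum. Control cells stayed in normal medium, which also held 5 ng/ml FGF2, while treated cells were kept for 12 h without FGF2 and with SU5402, an inhibitor of FGF receptors. Each of 4 two-colour arrays held 1 treated sample (Cy3) and 1 control sample (Cy5), from 4 biological replicates per the design text. Dyes were not swapped, so a dye effect of a probe and the treatment cannot be told apart. All values are log2 ratios of treated over control, relative to the central trend of the array, and a gene was called higher or lower at an adjusted p under 0.05 (limma, Benjamini-Hochberg over all 18495 genes).

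The respiratory chain is a set of protein complexes in the inner mitochondrial membrane. Complex I takes electrons from NADH and complex II takes them from succinate. Both pass them through ubiquinone to complex III, from which the small protein cytochrome c carries them to complex IV, cytochrome c oxidase, where oxygen is reduced. Complexes I, III and IV pump protons, and complex V, ATP synthase, makes ATP as the protons flow back. Most subunits are encoded in the nucleus and a few catalytic ones of complexes I, III, IV and V in the mitochondrial genome. Germ cells of the testis are known for tissue forms of some of these proteins, and spermatogonia are usually described as leaning on glycolysis more than later germ cells do.

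The promoters of many such genes carry short sites for the factors NRF1, GABP (an ETS protein) and YY1, and 4 promoters are printed here because they belong to members that moved in opposite directions while sharing the NRF1 letters. Windows run from 250 bases before to 30 bases after the RefSeq start (GRCm38.p6), 5′ to 3′ along the gene, and capitals mark a match on either strand to the NRF1 letters (GCGCN directly followed by TGCGC) or, near the end of the Atp5h window, to the ETS letters CCGGAAGT. Cox6a1 (chr5:115348929-115349208, minus strand) and Uqcrc1 (chr9:108936398-108936677, plus strand) were lower in treated cells. Ndufa8 (chr2:36049309-36049588, minus strand) and Atp5h (chr11:115419890-115420169, minus strand) were higher.
Cox6a1: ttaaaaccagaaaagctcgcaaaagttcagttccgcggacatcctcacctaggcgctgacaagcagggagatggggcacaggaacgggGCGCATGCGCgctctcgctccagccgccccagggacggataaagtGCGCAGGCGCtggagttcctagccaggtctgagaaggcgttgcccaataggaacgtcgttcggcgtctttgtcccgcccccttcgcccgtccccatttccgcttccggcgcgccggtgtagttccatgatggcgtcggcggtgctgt
Uqcrc1: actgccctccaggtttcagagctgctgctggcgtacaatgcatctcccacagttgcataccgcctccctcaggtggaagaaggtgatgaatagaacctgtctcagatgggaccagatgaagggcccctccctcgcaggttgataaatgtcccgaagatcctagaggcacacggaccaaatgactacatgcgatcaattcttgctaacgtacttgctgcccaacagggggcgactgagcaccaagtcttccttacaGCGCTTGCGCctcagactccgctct
Ndufa8: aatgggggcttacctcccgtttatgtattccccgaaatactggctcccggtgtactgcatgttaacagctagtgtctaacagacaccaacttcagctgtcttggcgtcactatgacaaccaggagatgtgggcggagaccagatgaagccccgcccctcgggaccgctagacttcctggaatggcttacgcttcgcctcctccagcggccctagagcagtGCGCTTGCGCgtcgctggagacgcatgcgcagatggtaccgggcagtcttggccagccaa
Atp5h: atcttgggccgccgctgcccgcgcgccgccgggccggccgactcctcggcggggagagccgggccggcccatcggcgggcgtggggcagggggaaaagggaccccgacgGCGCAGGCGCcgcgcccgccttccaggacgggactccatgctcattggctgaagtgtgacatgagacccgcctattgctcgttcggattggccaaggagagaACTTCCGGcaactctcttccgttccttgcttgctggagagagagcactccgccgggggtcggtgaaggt

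Over the whole RefSeq windows of 300 bases, which reach 50 bases past the start, a promoter was found for 66 of the 80 subunit genes. The NRF1 letters were in 17 of these 66 (25.8%), against 4.6% of all 32851 windows and 7.17% of protein-coding genes. They were in 6 of 32 subunits called higher, 4 of 11 called lower and 7 of 22 not called. The YY1 letters AAGATGGC were in 10 of 66 (15.2%), against 2.75% of windows and 3.57% of protein-coding genes, with 7 of 32 called higher, 0 of 11 called lower and 3 of 22 not called. The ETS letters were in 5 of 66 (7.58%), against 3.89% of windows and 5.69% of protein-coding genes. A match of letters is a description of the sequence and not a bound site. Both strands were searched, and none of the 3 motifs contains another.

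Of 18495 genes tested, 68.4% were called, 37.6% higher and 30.8% lower. Of the 78 subunit genes tested, 39 (50%) were called higher, 13 (16.7%) lower and 26 were not called. Their median log2 ratio was 0.18, with array medians of 0.21, 0.14, 0.26 and 0.066, beside 0.024 over all genes. Most of these differences were small: 25.6% of the subunits lay beyond 0.5 in either direction, against 37% of all genes. With the arrays centred on the median without a brightness trend (no loess), the split turned to 12 higher and 21 lower and the subunit median to -0.13, so the leaning of the whole set towards higher values rests on the correction of that trend. In each of the other ways of processing that kept 1 value for all subunits, more subunits were called higher than lower. The 10 rises and 5 falls called under every alternative that gave the gene a value were Ndufa1, Ndufa6, Ndufa12, Ndufv2, Ndufv3, Uqcrb, Uqcrfs1, Cox6a2, Cox6b2 and Cox7c upward and Ndufv1, Uqcrc1, Cox5a, Cox6a1 and Atp5b downward.

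**Figure D1:**
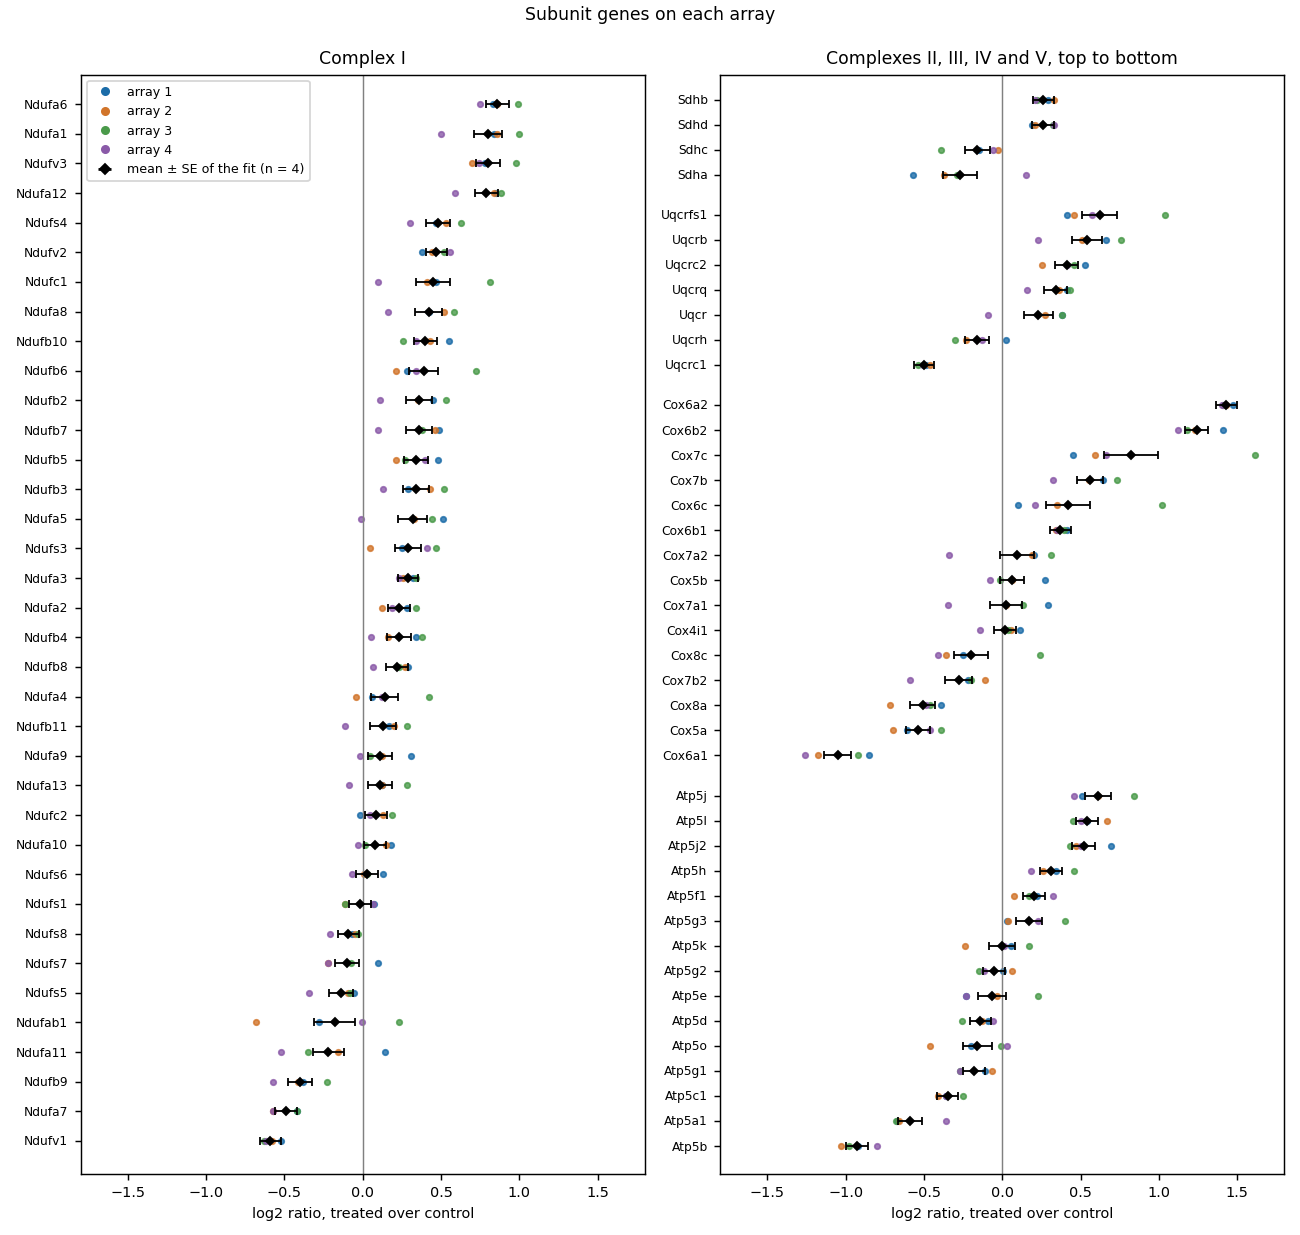
Log2 ratio of treated over control (x axis) of the tested subunit genes (y axis; 1 of the 78 is not shown), with 1 coloured point for each of the 4 arrays and the mean ± SE of the limma fit in black. Values run from -1.05 for Cox6a1 to 1.43 for Cox6a2. Within each complex at least 1 gene lies above 0 on all 4 arrays and at least 1 lies below 0 on all 4.

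**Figure D2:**
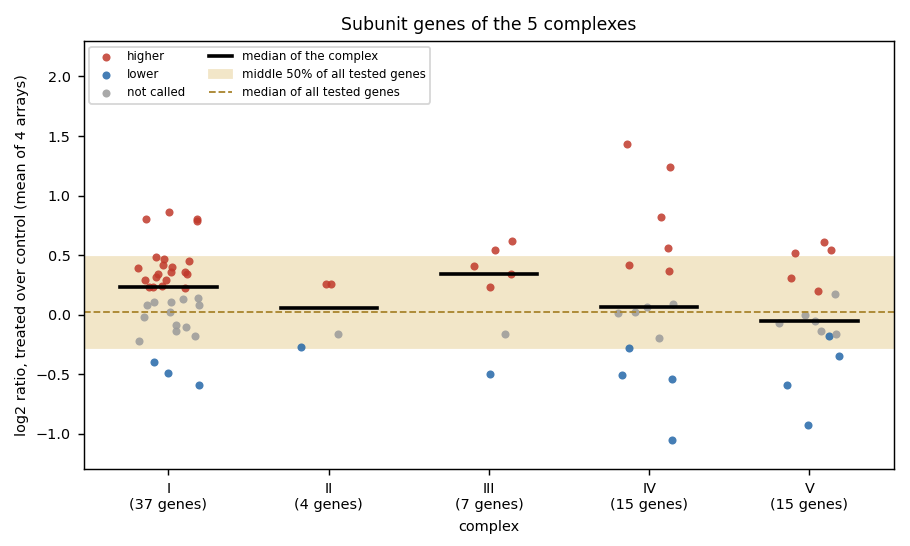
Mean log2 ratio over 4 arrays (y axis) of the subunit genes of each complex (x axis), coloured by call, with the median of the complex as a black line and the middle 50% of all tested genes, from -0.28 to 0.48, shaded. The medians were 0.23, 0.053, 0.34, 0.061 and -0.052 for complexes I to V, and all of them lie within the shaded range.

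Complex I, NADH dehydrogenase, has the most subunits. Of its 37, 21 (56.8%, against 37.6% of all genes) were higher, 3 (8.11%, against 30.8%) lower and 13 not called. Its median was 0.23, with array medians of 0.28, 0.2, 0.28 and 0.1, and it stayed above 0 in every alternative (0.035 with median centring alone). The supernumerary subunits surround the catalytic core. Of these, 8 of 10 Ndufb genes (median 0.34) and 7 of 14 Ndufa genes (median 0.19) were higher, against 37.6% of all genes. With median centring alone, 1 of 10 Ndufb genes was higher and 1 lower, and 3 of 14 Ndufa genes were higher and 3 lower. The scanner's own normalization gave 5 Ndufb and 7 Ndufa genes higher, and median-centred processed signals gave 4 and 5. The difference between these groups of genes was not tested.

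Ndufa6, a supernumerary subunit of the arm that faces the matrix, had log2 ratios of 0.83, 0.86, 0.99 and 0.75 on arrays 1 to 4. Its treated levels, between 14.33 and 14.42 log2 units, lay above all control levels, between 13.4 and 13.59. The mean ratio was 0.86 (SE 0.071, n = 4; adjusted p = 5.32e-06, limma), a 1.81-fold higher level.

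Ndufa1, a small membrane subunit encoded on the X chromosome, was at 0.84, 0.86, 1 and 0.5 (mean 0.80, SE 0.089; adjusted p = 3.87e-05). Its second probe gave 0.84. Ndufa12, another accessory subunit, was at 0.85, 0.84, 0.88 and 0.59 (mean 0.79, SE 0.075; adjusted p = 1.47e-05). Its other 2 probes rose as well, by 0.96 and 1.27. Ndufv3, an accessory subunit of the NADH-binding module, was at 0.78, 0.70, 0.98 and 0.74 (mean 0.80, SE 0.074; adjusted p = 1.15e-05), and its 3 probes all rose, the others by 1.1 and 0.63. For these genes every array was above 0 and no array decided the call.

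The core subunits of complex I divided. Ndufv1, which binds NADH and the flavin, had ratios of -0.52, -0.58, -0.63 and -0.62, so that it was lower on every array. Its mean was -0.59 (SE 0.066; adjusted p = 4.3e-05), 1.5-fold lower. Ndufv2, its iron-sulphur partner in the same module, was higher on every array, at 0.38, 0.44, 0.52 and 0.56 (mean 0.47, SE 0.069; adjusted p = 0.000228). The difference Ndufv2 minus Ndufv1 was 1.06 (SD 0.13, n = 4), between 0.89 and 1.18 on single arrays. Its exact sign-flip p was 0.125, two-sided, the smallest that 4 arrays allow, and 0.143 after adjustment over the 8 pairs of genes compared.

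Ndufs3, a core subunit of the module next to the ubiquinone site, was at 0.25, 0.049, 0.47 and 0.41 (mean 0.29, SE 0.085; adjusted p = 0.012). Its call was lost without array 3 (0.24) and with median centring alone (0.13). It was also lost with the scanner's own normalization (0.15) and with median-centred processed signals (0.20). Ndufs1 (-0.019, 95% interval -0.18 to 0.14), Ndufs7 (-0.10, interval -0.28 to 0.075) and Ndufs8 (-0.091, interval -0.25 to 0.065), which hold iron-sulphur clusters, did not pass the test. In the reported processing their intervals exclude changes of the size seen for Ndufv1. With median centring alone Ndufs7 was called lower (-0.42; adjusted p = 0.0419), beside -0.93 for Ndufv1. Ndufs8 was called lower with the scanner's own normalization (-0.21; adjusted p = 0.0349), beside -0.52 for Ndufv1.

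Among the other falls in complex I, Ndufa7 was at -0.42, -0.57, -0.42 and -0.57 (mean -0.49, SE 0.069; adjusted p = 0.000177), while its second probe gave -0.09. Ndufa7 was not called in the median-centred processed signals (-0.28; adjusted p = 0.0907). Ndufb9 averaged -0.40 (SE 0.076; adjusted p = 0.00125). That call was lost with the scanner's own normalization, with median-centred processed signals and with a loess span of 0.05. Ndufa4, counted here by its name but now often placed in complex IV, did not pass the test (0.14, SE 0.086; adjusted p = 0.175). Ndufab1, the mitochondrial acyl carrier protein, depended on the probe: the brightest gave -0.18 (adjusted p = 0.243 over genes), and 2 others 0.62 and 1.25.

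Complex II, succinate dehydrogenase, is made from 4 nuclear genes and is shared with the citric acid cycle. Sdhb, the iron-sulphur subunit, was at 0.29, 0.33, 0.22 and 0.21 (mean 0.26, SE 0.067; adjusted p = 0.00654), and the membrane anchor Sdhd at 0.19, 0.21, 0.32 and 0.33 (mean 0.26, SE 0.068; adjusted p = 0.00674). The flavin subunit Sdha was lower on 3 arrays (-0.57, -0.37, -0.29) and higher on array 4 (0.15), with a mean of -0.27 (SE 0.11; adjusted p = 0.0491). Its call was lost without array 1, 2 or 3 (-0.17, -0.24 and -0.27), its value without array 4 was -0.41, and its second probe gave 0.038. Sdhc, the other anchor, did not pass the test (-0.16, SE 0.081; adjusted p = 0.113). Under the scanner's own normalization Sdhb and Sdhd were not called (0.13 each; adjusted p = 0.145 and 0.149) and Sdhc was called lower (-0.33; adjusted p = 0.00959), so complex II had 0 genes higher and 2 lower. Over all genes that normalization called 30.3% higher and 42.5% lower. Sdhb and Sdhd were also not called with either form of median centring.

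In complex III, the cytochrome bc1 complex, 5 of 7 genes were higher, 1 lower and 1 not called. That is 71.4% higher and 14.3% lower, against 37.6% and 30.8% of all genes. The median of complex III was 0.34 and turned to -0.085 with median centring alone. The Rieske iron-sulphur protein Uqcrfs1, which hands electrons to cytochrome c1, was at 0.41, 0.46, 1.04 and 0.57, with array 3 apart from the others. Its mean was 0.62 (SE 0.11; adjusted p = 0.00062), and 0.48 without array 3. The 2 large core proteins, which have no redox group, went in opposite directions on all 4 arrays. Uqcrc1 was at -0.49, -0.46, -0.54 and -0.51 (mean -0.50, SE 0.065; adjusted p = 0.000113), and its second probe gave -0.45. Uqcrc2 was at 0.53, 0.25, 0.46 and 0.41 (mean 0.41, SE 0.073; adjusted p = 0.00083), but it was not called with median centring alone (0.20; adjusted p = 0.327). Uqcrc2 minus Uqcrc1 was 0.91 (SD 0.15, n = 4; exact sign-flip p = 0.125, adjusted 0.143).

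Of the small subunits of complex III, Uqcrb was at 0.66, 0.51, 0.76 and 0.23 (mean 0.54, SE 0.093; adjusted p = 0.000642). Uqcrq averaged 0.34 (SE 0.073; adjusted p = 0.00263), but its second probe was called lower (-0.24; adjusted p = 0.0215 over probes). Its call was lost with median centring alone and with the mean over kept probes. Uqcr, now named Uqcr11, averaged 0.23 (adjusted p = 0.046), a call lost without array 1, 2 or 3 (0.18, 0.22 and 0.19). That call was also lost with either form of median centring, with the scanner's own normalization and without the filter on dim probes. Under the alternatives Uqcr lay between -0.12 and 0.35. The hinge protein Uqcrh did not pass the test (-0.16, SE 0.076; adjusted p = 0.0955).

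Complex IV had the widest spread. Of 15 genes tested, 6 (40%) were higher, 4 (26.7%) lower and 5 not called, near the shares over all genes (37.6% and 30.8%). Ratios ran from -1.05 for Cox6a1 to 1.43 for Cox6a2, the largest fall and the largest rise among the 78 subunits. These are the 2 forms of one subunit: Cox6a1 is found in most tissues and Cox6a2 is known from heart and skeletal muscle. Cox6a1 was at -0.85, -1.18, -0.92 and -1.26. Its control levels lay between 18.51 and 18.6 log2 units and its treated levels between 17.35 and 17.69, without overlap. The mean was -1.05 (SE 0.086; adjusted p = 5.21e-06), 2.07-fold lower. Its size depended on the correction of the brightness trend and was -0.43 with the narrowest loess span of 0.05, still called.

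Cox6a2 was at 1.47, 1.43, 1.41 and 1.4. Treated levels lay between 9.63 and 9.77 log2 units and control levels between 8.19 and 8.34, so the groups did not overlap. Its mean was 1.43 (SE 0.065; adjusted p = 1.11e-07), 2.69-fold higher, and between 1.41 and 1.60 under the alternatives. Cox6a2 minus Cox6a1 was 2.48 (SD 0.18, n = 4; exact sign-flip p = 0.125, adjusted 0.143), from 2.32 to 2.66 on single arrays.

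Cox6b2, the testis form of another subunit, also rose and was at 1.41, 1.23, 1.18 and 1.12. Treated levels, between 13.79 and 14.11, were above control levels, between 12.56 and 12.93. The mean was 1.24 (SE 0.074; adjusted p = 6.1e-07), 2.36-fold higher. The ubiquitous form Cox6b1 rose less, to 0.37 (SE 0.065; adjusted p = 0.000758), and was not called in the median-centred processed signals (0.24; adjusted p = 0.16). Cox6b2 minus Cox6b1 was 0.86 (SD 0.11, n = 4; exact sign-flip p = 0.125, adjusted 0.143).

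The order differed among the other pairs of forms. Cox7b2, known from testis, was at -0.22, -0.11, -0.20 and -0.59 (mean -0.28, SE 0.089; adjusted p = 0.0202), a call that was lost without array 4 (-0.17). The ubiquitous Cox7b was at 0.64, 0.55, 0.73 and 0.32 (mean 0.56, SE 0.082; adjusted p = 0.000251). With median centring alone neither was called (-0.21 for Cox7b2 and 0.35 for Cox7b). Cox7b2 minus Cox7b was -0.84 (SD 0.12; exact sign-flip p = 0.125). In the subunit 8 pair, Cox8a was lower (-0.51, SE 0.077; adjusted p = 0.000277). It was not called with the narrowest loess span (-0.10) or in the median-centred processed signals (-0.28). The testis form Cox8c did not pass the test (-0.20, SE 0.11; adjusted p = 0.134). Cox8c minus Cox8a was 0.32 (SD 0.28, n = 4; exact sign-flip p = 0.125, adjusted 0.143), with 0.14, 0.36, 0.70 and 0.078 on the 4 arrays. In the reported processing the tissue form thus had the higher ratio, as in subunits 6a and 6b. That order turned with the scanner's normalization (Cox8a -0.32, Cox8c -0.38) and in the median-centred processed signals (-0.28 and -0.33). Without array 3, where it stood at 0.24, Cox8c was called lower (-0.34; adjusted p = 0.00616). The muscle form Cox7a1 (0.023, interval -0.21 to 0.25) and the liver form Cox7a2 (0.092, interval -0.15 to 0.33) did not pass the test, but Cox7a2 was called higher without array 4 (0.24; adjusted p = 0.0249). Cox7a1 minus Cox7a2 was -0.069 (SD 0.13, n = 4; exact sign-flip p = 0.375).

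Markers of cell types that use such tissue forms, and of other cells of the testis, are set beside the shares over all genes. Those shares were 37.6% higher and 30.8% lower. Of 11 tested striated muscle markers, 5 were higher and 5 lower (median 0.072): the sarcomere genes Mybpc3 (3.66) and Smpx (3.44) rose most, while Myh7 (-0.66) and Mb (-0.63) fell most, and Ckm was not well above background. Of 6 tested markers of meiotic cells and spermatids, 2 were higher, near the share over all genes, and 0 lower (median 0.08). Pgk2 and Acrv1 were not well above background. Sertoli markers were higher in 10 of 11 (median 2.31) and fibroblast markers in 7 of 8 (median 1.44). Leukocyte markers were lower in 9 of 9 (median -0.91) and germ cell markers in 7 of 11, with 0 higher (median -0.33). In RNA from whole cultures, fewer cells of a type and less RNA per cell cannot be told apart, and the part of these cell types in the values of the subunit genes was not tested.

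Among the remaining subunits of complex IV, Cox7c was at 0.45, 0.59, 1.61 and 0.66 (mean 0.82, SE 0.17; adjusted p = 0.00173), with array 3 far above the others. Cox6c was likewise highest on array 3 (1.02 against 0.10 to 0.35; mean 0.42, adjusted p = 0.0209), and was 0.22 without it (adjusted p = 0.0492). Cox5a, which is part of the matrix side of the complex, was lower at -0.61, -0.70, -0.39 and -0.46 (mean -0.54, SE 0.076; adjusted p = 0.000196), and -0.21 with the narrowest loess span. Cox4i1, a subunit that takes part in control by ATP, did not pass the test (0.017, SE 0.072, interval -0.15 to 0.18), and it changed direction with the scaling, from -0.51 with median centring alone (adjusted p = 0.0116) to 0.39 with the narrowest span (adjusted p = 0.000942).

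ATP synthase, complex V, had 5 of 15 genes higher (33.3%), 4 lower (26.7%) and 6 not called, with a median of -0.052. These shares are near those over all genes (37.6% and 30.8%). By place in the enzyme the calls ran in different directions, a difference that was not tested. Of the 5 genes of the catalytic F1 head and its central stalk, 3 were lower and 0 higher (median -0.35; array medians -0.36, -0.41, -0.26 and -0.36). Of the 4 genes of the peripheral stalk, which holds the head still, 3 were higher and 0 lower (median 0.25; array medians 0.28, 0.17, 0.32 and 0.25). With median centring alone these medians were -0.80 and -0.14, so the peripheral stalk changed sign under that scaling. It then had 0 of 4 genes higher and 1 lower. The stalk had 2 of 4 genes higher with median-centred processed signals (median 0.37) and with the mean over kept probes (median 0.099). The F1 median moved towards 0 in other settings, each with 2 of 5 genes lower and 0 higher: it was -0.17 and -0.16 with loess spans of 0.1 and 0.05, -0.19 with the scanner's normalization, -0.14 with median-centred processed signals and -0.18 with the mean over kept probes. The 3 falls include Atp5a1, and the 3 rises of the stalk include Atp5f1. Probes of each of these genes were called in opposite directions.

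Atp5b, the catalytic beta subunit, was at -0.92, -1.03, -0.98 and -0.80. Its treated levels, between 16.36 and 16.73 log2 units, lay below its control levels, between 17.34 and 17.55. The mean was -0.93 (SE 0.07; adjusted p = 3e-06), 1.91-fold lower. Its 2 other probes gave -0.35 (adjusted p = 0.0246 over probes) and -0.041 (adjusted p = 0.734), so the size of the fall differed by probe.

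Atp5a1, the alpha subunit, was at -0.67, -0.66, -0.68 and -0.36 (mean -0.59, SE 0.079; adjusted p = 0.000124), but its second probe was called in the opposite direction (0.24; adjusted p = 0.0476 over the genes with several kept probes), so no direction is given for this gene as a whole. Atp5c1, the rotating gamma subunit, averaged -0.35 (SE 0.067; adjusted p = 0.00144). That call was lost with both narrower loess spans, with the scanner's own normalization and with median-centred processed signals. Atp5d (-0.14, adjusted p = 0.109) and Atp5e (-0.068, adjusted p = 0.524), the other central stalk subunits, did not pass the test.

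Atp5j, coupling factor 6 of the peripheral stalk, was at 0.51, 0.61, 0.84 and 0.46. Its treated levels (16.87 to 17.06) were above its control levels (16.21 to 16.46), and its mean was 0.61 (SE 0.081; adjusted p = 0.000135), 1.52-fold higher. Atp5j minus Atp5b was 1.54 (SD 0.25, n = 4; exact sign-flip p = 0.125, adjusted 0.143). These 2 genes have the highest and the lowest ratio of complex V, so a wide difference follows from the choice of pair. Atp5h, the d subunit of the same stalk, was at 0.34, 0.26, 0.46 and 0.18 (mean 0.31, SE 0.073; adjusted p = 0.0042). Atp5f1, its b subunit, was 0.20 (adjusted p = 0.0334), but its call was lost without array 1, 3 or 4 (0.19, 0.20 and 0.16) and another of its probes was called lower (-0.59). Atp5l (0.54, SE 0.07; adjusted p = 0.000109) and Atp5j2 (0.52, SE 0.073; adjusted p = 0.000175), small subunits of the membrane part, were higher on all 4 arrays.

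The c ring, the rotor that protons turn, is encoded by 3 genes for one mature protein. Atp5g1 was -0.18 (adjusted p = 0.0485), a call lost with any 1 of the 4 arrays left out (-0.22 to -0.15). Atp5g2 (-0.052, interval -0.21 to 0.11) and Atp5g3 (0.17, interval -0.013 to 0.36) did not pass the test. Atp5g3 was called higher with both narrower loess spans (0.33 each; adjusted p = 0.00544 and 0.00404).

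**Figure D3:**
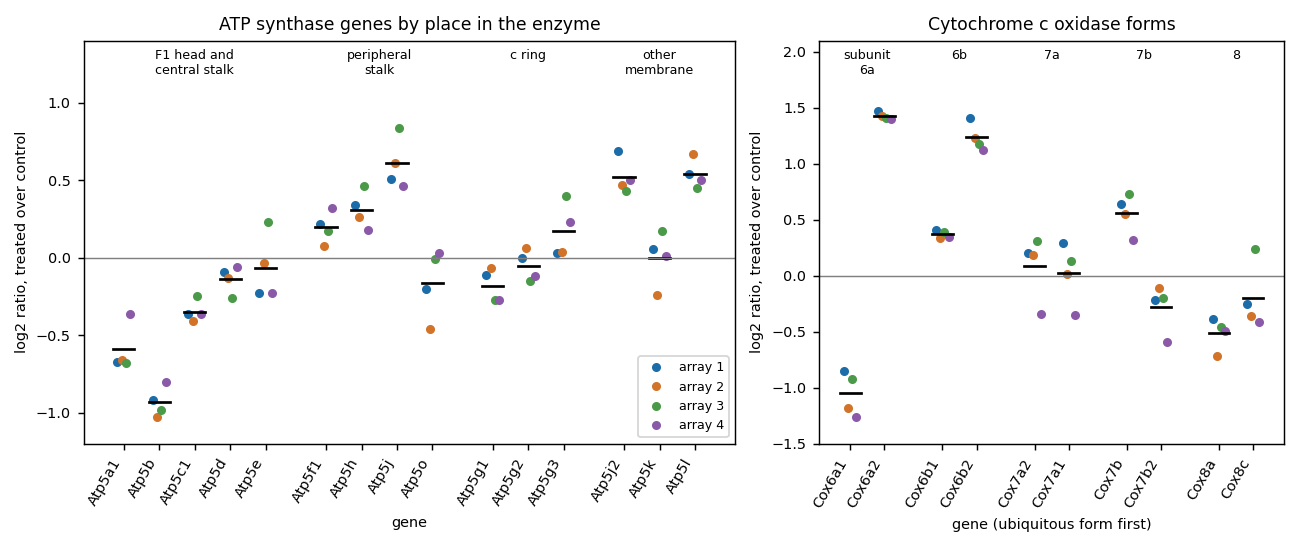
Log2 ratio of treated over control (y axis) on each of 4 arrays (coloured points) with the mean as a black line, for the 15 ATP synthase genes by place in the enzyme (left) and for 5 pairs of cytochrome c oxidase forms (right). The 4 points of Atp5b lie between -1.03 and -0.80 and those of Atp5j between 0.46 and 0.84, and Cox6a1 and Cox6a2 lie apart on every array.

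Of the 7 members outside the complexes, 3 (42.9%) were higher, 2 (28.6%) lower and 2 not called. These shares are near those over all genes (37.6% and 30.8%). Cycs, the somatic cytochrome c, was at 0.35, 0.33, 0.59 and 0.15 (mean 0.36, SE 0.083; adjusted p = 0.00396), and its other probes gave 0.51 and 0.53. With median centring alone Cycs was not called (0.072; adjusted p = 0.731). Atp5s, now named Dmac2l, was 0.72 (SE 0.08; adjusted p = 3.83e-05). Atp5sl, now Dmac2, was -0.87 (SE 0.075; adjusted p = 7.04e-06), while its second probe gave -0.002. The assembly factor Ndufaf2 was 0.25 (adjusted p = 0.0226), lost without array 1, 2 or 3 (0.26, 0.22 and 0.20). That call was also lost with median centring alone (0.15), the scanner's own normalization (0.068), median-centred processed signals (0.12) and a loess span of 0.05. Cox4nb, now Emc8, is named only for its place beside Cox4i1 and was -0.25 (adjusted p = 0.00807), with 0.14 on its second probe. Its call was lost with median centring alone and with the mean over kept probes.

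The mitochondrial genome encodes other subunits of the same complexes, and 2 probes of the array carry the names of such genes. COX2, the copper-binding subunit of complex IV, was at -1.17, -1.91, -1.63 and -1.82 (mean -1.63, SE 0.11; adjusted p = 1.78e-06), 3.1-fold lower and a larger fall than that of any nuclear subunit tested. CYTB, cytochrome b of complex III, was at -0.45, -1.07, -0.56 and -0.81 (mean -0.72, SE 0.1; adjusted p = 0.000196). CYTB ranged from -1.22 with median centring alone to -0.40 with a loess span of 0.05, and COX2 from -2.2 to -1.18, and both were called lower in each of these settings. The probes lie at chrM:7619-7678 and chrM:15099-15158 (mm9, as the files give them), and their 60 bases are printed because they show which transcripts these 2 values read.
COX2: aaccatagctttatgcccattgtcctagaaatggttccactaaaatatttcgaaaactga
CYTB: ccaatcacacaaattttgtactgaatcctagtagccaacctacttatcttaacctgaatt
A pair of probes on the same chromosome without a gene name, singled out after their values were seen, were also lower (-0.47 and -0.33; adjusted p = 0.000996 and 0.0104).

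Of the 13 subunits called lower, 11 lay in the brightest 10% of tested genes, as did 28 of the 39 called higher. Brightness here is the mean signal of a probe and does not compare RNA levels between genes. The median subunit stood at percentile 95.5 of brightness over all tested genes, and 59 of 78 lay in the brightest 10%. In the brightest 1%, 185 genes, 61.1% of all genes were called lower and 15.1% higher, with a median of -0.47. The 9 subunits there (Atp5b, Cox4i1, Cox5a, Cox5b, Cox6a1, Cox8a, Ndufa7, Ndufa13 and Uqcrh) had 5 lower, 0 higher and a median of -0.49, near that background. Over the brightest 10% as a whole, 28 of 59 subunits were higher and 11 lower (median 0.14), against 34.7% and 33.6% of all genes there (median 0.0096).

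The median of the brightest 1% changed with the processing: it was -0.16 with a loess span of 0.1, -0.028 with a span of 0.05, -0.21 with the scanner's normalization and -0.99 with median centring alone. Across the 78 subunits the log2 ratio correlated with brightness at r = -0.45 (Spearman rho = -0.40). Within the brightest 10% it was -0.63 over 59 subunits and -0.22 over all 1850 genes. Those points share arrays and the normalization, and the correlation is across genes. Of 27 members with several kept probes, the brightest probe gave the lower ratio in 20 (74.1%), against 45.5% of 6588 genes with several probes. Kept probes of 4 of the 27 members (Atp5a1, Atp5f1, Ndufa3 and Uqcrq) were called in both directions. Which of these values is nearer to the RNA change was not tested.

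**Figure D4:**
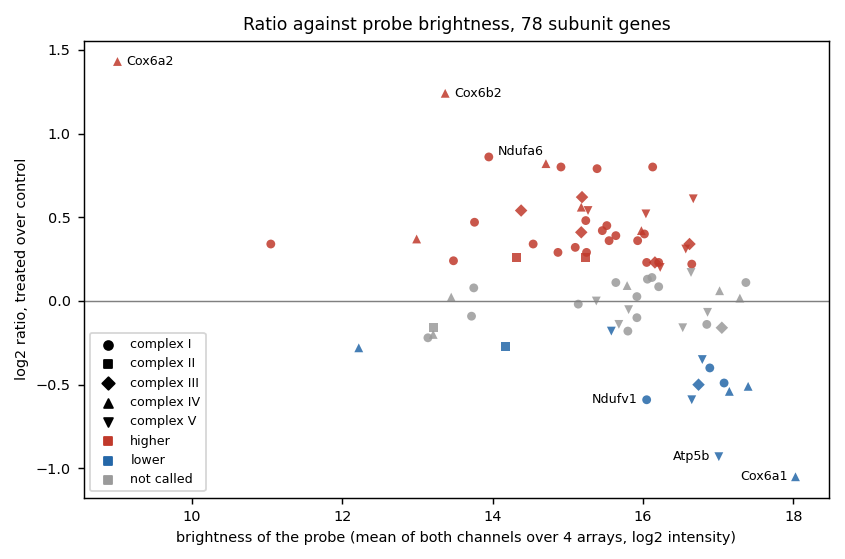
Log2 ratio of treated over control (y axis) against brightness of the probe (x axis, log2 intensity) for the 78 tested subunit genes, with a symbol for each complex and a colour for the call. Cox6a1 and Atp5b lie at the bright end with ratios of -1.05 and -0.93, and Cox6a2 at the dim end with 1.43.

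**Figure D5:**
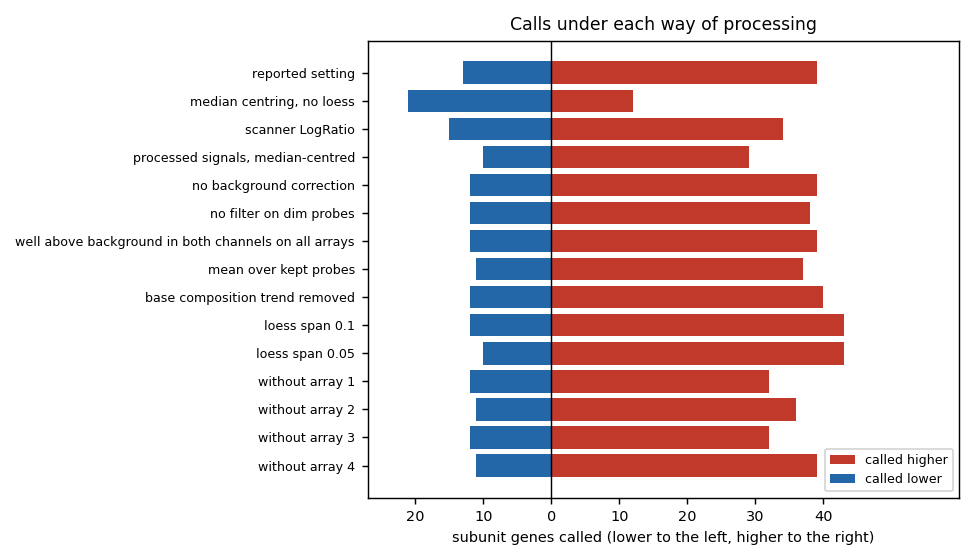
Number of subunit genes called higher (bars to the right) and lower (bars to the left) under the reported processing and each alternative (y axis) that keeps 1 value for every gene. The reported bars show 39 and 13, and median centring alone is the setting with fewer genes higher (12) than lower (21).

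Of 16 regulators of genes for mitochondria, in the nucleus or the mitochondrial genome, 5 were higher, 5 lower and 6 not called (median 0.051). This is near the shares over all genes (37.6% higher, 30.8% lower, median 0.024). Creb1 (0.86, SE 0.09; adjusted p = 2.6e-05), a factor that acts on many promoters, and the coactivator Ppargc1a (0.53, SE 0.067; adjusted p = 9.78e-05) rose most. Ppargc1b, a coactivator of the same family, fell by 0.61 on the log2 scale (SE 0.088; adjusted p = 0.000224), and the factor Nrf1 by 0.42 (SE 0.079; adjusted p = 0.00121). Ppargc1a was at 0.50, 0.54, 0.61 and 0.46, and Ppargc1b at -0.58, -0.50, -0.44 and -0.91, so the 2 coactivators did not overlap on any array.

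Of 22 assembly factors tested, 8 were higher (against 37.6% of all genes), 4 lower (against 30.8%) and 10 not called (median 0.077). Surf1, a complex IV assembly factor, was higher (0.69, SE 0.067; adjusted p = 1.56e-05), as was Nubpl, which supplies iron-sulphur clusters to complex I (0.55, SE 0.086; adjusted p = 0.000362). Lrpprc, which stabilizes mitochondrial messenger RNA, was lower (-0.56, SE 0.079; adjusted p = 0.000206), as was Bcs1l, which inserts the Rieske protein (-0.39, SE 0.071; adjusted p = 0.00092).

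In the citric acid cycle and pyruvate dehydrogenase, 6 of 17 genes were higher, 5 lower and 6 not called (median 0.022), which is also near the shares over all genes. Malate dehydrogenase Mdh2 was at -1.06, -1.22, -1.14 and -1.13, a fall of the size of Cox6a1 (mean -1.14, SE 0.067; adjusted p = 5.61e-07). Dlat, a pyruvate dehydrogenase subunit, was -0.57 (SE 0.11; adjusted p = 0.0012). Dld, the dehydrogenase shared with the oxoglutarate complex, was 0.49 (SE 0.072; adjusted p = 0.000247), and Sucla2, a subunit of succinyl-CoA synthetase, 0.48 (SE 0.071; adjusted p = 0.000276).

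Of 7 genes listed as partners, COX2 and CYTB included, Cyc1, the cytochrome c1 of complex III that the name rule does not take, was lower at -0.30, -0.67, -0.66 and -0.27 (mean -0.47, SE 0.09; adjusted p = 0.00125). Usmg5, a small ATP synthase subunit, was higher (0.34, SE 0.084; adjusted p = 0.00546). Cyct, the testis cytochrome c (-0.0096), the haem lyase Hccs (-0.024) and the ATP synthase inhibitor Atpif1 (-0.033) did not pass the test. A complex III subunit under another name in the files, 1110020P15Rik (Uqcr10), was higher (0.33, SE 0.075; adjusted p = 0.00339).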

How the data were processed

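Spot intensity values came from Agilent Feature Extraction 10.5.1.1 (per the submitters' processing notes) and were deposited by the authors as scanned. The scanner's LogRatio is a log10 ratio, red to green, per the file headers. The deposited series matrix holds log2 values. They matched the log2 ratio of processed green to processed red signals at 100% of 41174 probes, with a tolerance of 0.001. This is treated over control, uncentred, with column medians of -0.26, 0.011, 0.11 and -0.058.

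Of 45018 spots per array, 1639 were controls, 141 to 171 were left out as non-uniform or population outliers and 0 were saturated. Per array, 26613 to 28496 probes passed the scanner's background test with treated RNA and 25533 to 27891 with control RNA. Background was corrected by normexp (offset 50) on mean signals and median local background, followed by loess (span 0.3) within each array. Spots were averaged by probe, and 27730 probes that passed that test on 3 or more of the 4 arrays, within 1 channel, were retained. Each gene name of the files was represented by its brightest retained probe. The ratio was tested against 0 with lmFit and eBayes (limma 3.58.1, R 4.3.3). SE is that of this fit. Levels are log2 values after loess and Aquantile scaling. The 4 arrays limit the precision, with a median SD of a gene between arrays of 0.15, and arrays correlated across genes at r between 0.906 and 0.947. Each array's ratio already pairs its treated and control sample, so no other block was fitted.

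Promoters are RefSeq's (GRCm38.p6). Of 128 member probes, 111 were matched to RefSeq by accession, and 11 members have a pseudogene entry there. Tested on simulated data with 18495 genes and 200 changed, the fit recovered 18% of genes changed 1.25-fold, 78% at 1.5-fold, 92% at 2-fold and 100% at 4-fold, with 7 false calls of 151. The simulation held independent noise without dye or brightness effects. In the data 68.4% of genes were called, so these rates need not hold there. The members and the lists were chosen with earlier results of these data known. Named are, in each complex, the 2 largest rises and falls among called genes with 1 sign on all arrays, core subunits, tissue forms, called members outside the complexes, and the 2 most changed genes each way of each list. One member that this rule takes is not reported here. Other members named (such as Atp5c1, Atp5h, Cox6c and genes with opposed probes) were chosen after their values were seen. Alternatives covered the normalization, background correction, filter, probe choice, base composition and each array left out; the loess spans of 0.1 and 0.05 were chosen after seeing the data.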

Additional observations from a re-analysis of the deposited data

Results flagged for a closer look

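In 3 of 85 members tested 1 array stood apart from the other 3 by Dixon's criterion, and chance alone gives this in about 1 of 20 genes. In all 3 it was array 4. Atp5a1 was at -0.36 on array 4 and between -0.68 and -0.66 on the others. Ndufa12 was at 0.59 on array 4 and between 0.84 and 0.88 on the others. Ndufs5, a complex I accessory subunit that was not called, was at -0.34 on array 4 and between -0.094 and -0.054 on the others.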

How the results depend on the processing

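Of the 39 subunits called higher, 10 kept the call in every alternative that gave them a value, as did 5 of the 13 called lower, and 9 of 26 uncalled ones stayed uncalled. Median centring without loess gave 12 subunits higher and 21 lower, 3585 genes lower in all, and medians of 0.035, -0.051, -0.085, -0.19 and -0.36 for complexes I to V. Under it Cox4i1 turned to -0.51. The scanner's LogRatio, which shifts the median of all genes to -0.12, gave complex II -0.1 and 41.7% of all called genes higher, against 54.9% in the reported processing. Centred processed signals gave complex II -0.051 and complex IV 0.24. Taking the second brightest probe, which only 23 subunits have, gave 10 subunits higher and 4 lower, 2472 genes higher and 1774 lower, and medians of 0.58, -0.24 and 0.15 for complexes I, III and V. With it Atp5a1 turned to 0.24, Cox4nb to 0.14 and Sdha to 0.038. Removing the trend with base composition gave complex V 0.053. Complex IV was 0.28 and 0.35 with loess spans of 0.1 and 0.05. Leaving out 1 array gave 32 to 39 subunits higher and 11 to 12 lower, and 12 called members lost their call without at least 1 array. Except where the construction shows it (fewer genes with a second probe), the cause was not tested.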
